A study of Mus musculus with 9 samples.

Results

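The genes described here are 10 components of the spindle assembly checkpoint, *Mad2l1*, *Mad1l1*, *Bub1*, *Bub1b*, *Bub3*, *Ttk*, *Cdc20*, *Aurkb*, *Zw10* and *Zwilch*, taken from the table by their symbols. All 10 were found among the 24421 rows of the count table. Per the paper's text, SB28, a single GFP-positive mouse glioma line, was implanted in the brains of C57BL/6 mice aged 6 to 8 weeks. BAL101553 is an oral microtubule-targeting prodrug, and the labels do not give its dose. The paper places harvest at day 21 for vehicle-treated mice and at day 33 (Results) or day 35 (Methods) for BAL101553-treated mice. The 3 control and 3 BAL101553 libraries were matched to these groups by their labels. Drug and time of growth thus cannot be told apart in this comparison. A further 3 libraries carry the label astrocytes together with BAL101553 as treatment, and the paper's text does not describe them. The labels call the control and BAL101553 material whole tissue, whereas the study's methods describe GFP-positive cells sorted free of CD45 and CD11b. The paper's text speaks of 2 ex vivo samples per group as biological replicates, whereas the table holds 3 libraries per group, all used here. Neither it nor the labels tie the 3 libraries to separate mice, so p-values measure the spread between libraries, which may be technical in part.

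The spindle assembly checkpoint holds a cell in mitosis until every chromosome is attached to the spindle. Kinases and docking proteins at unattached kinetochores catalyze assembly of the mitotic checkpoint complex, in which MAD2, BUBR1 and BUB3 bind CDC20 and keep it from activating the anaphase-promoting complex (APC/C), the ubiquitin ligase that marks securin and cyclin B for destruction. Drugs that disturb microtubules, BAL101553 among them, leave kinetochores unattached and engage this checkpoint, which acts through proteins and their modification. Several of its genes are transcribed mainly in G2 and mitosis, so that their mRNA in a tissue also reflects how many cells divide. In bulk libraries such as these, fewer dividing cells and less RNA per cell cannot be told apart.

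Total counts were 24540452 to 28761388 in the control, 26667789 to 34013875 in the BAL101553 and 22919523 to 29230743 in the astrocyte-labelled libraries. Replicates differed by more than sampling noise, and no library was a copy of another. Defining markers were read as summed CPM (counts scaled to a common library size, with TMM factors over the 9 libraries). In the control and BAL101553 libraries the markers of microglia and macrophages summed to 2.06 to 4.51 CPM over 8 genes, and neuronal markers to 1.90 to 7.51 CPM over 5 genes, so that both sets were low in libraries labelled whole tissue. *Ptprc*, which encodes CD45, had 2 to 8 reads per library in these 6 libraries, and *Itgam*, which encodes CD11b, had 1 to 13. The astrocyte-labelled libraries held the 8 astrocyte markers at 12223 to 15009 CPM, but also the 6 oligodendrocyte markers at 10500 to 13042 CPM and the 8 microglial markers at 437 to 945 CPM.

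Which checkpoint mRNA was most abundant was asked first, with levels divided by the length of all annotated exons of a gene (CPM per kb). In control libraries *Cdc20*, the target of the checkpoint, stood highest at 34.5 ± 0.952 CPM per kb (SD, n = 3). The paralogous pair *Bub1b* and *Bub1* followed at 16.2 ± 0.887 and 15.9 ± 1.56 CPM per kb, with overlapping ranges. *Bub3* at 12.5 ± 0.036 and *Mad1l1* at 12.4 ± 0.527 CPM per kb could not be ordered either. *Aurkb* (9.61 ± 0.814), *Zwilch* (8.88 ± 0.171) and *Zw10* (7.78 ± 1.51 CPM per kb) formed the next step, again with overlapping ranges between neighbors. *Mad2l1* (5.64 ± 0.301) and *Ttk* (4.39 ± 0.124 CPM per kb) were lowest and did not overlap. The order depended on the length used. Divided by the length of the principal transcript, *Bub3* reached 39.5 CPM per kb in controls and passed *Cdc20* at 36.0. The exon union of *Bub3*, 7.01 kb, is much longer than its principal transcript of 2.22 kb. On the principal transcript length *Mad2l1* (6.27) stood below *Ttk* (7.52), and *Bub1b* (18.8) below *Bub1* (20.3 CPM per kb).

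In BAL101553 libraries *Cdc20* remained first at 31.4 ± 1.31 CPM per kb of all annotated exons. *Bub1b* at 20.8 ± 2.06 and *Bub1* at 15.1 ± 0.163 followed and no longer overlapped. *Ttk* (4.31 ± 0.493) and *Mad2l1* (4.76 ± 0.351 CPM per kb) were again lowest and here overlapped. On the principal transcript length *Bub3* (31.3) stood next to *Cdc20* (32.7) and ahead of *Bub1b* (24.2 CPM per kb). On that length *Mad2l1* (5.29) lay below *Ttk* (7.38 CPM per kb). In the astrocyte-labelled libraries the order was another one. *Bub3* (10.2 ± 0.456) and *Mad1l1* (9.29 ± 0.787 CPM per kb) led with overlapping ranges, and *Zw10* followed at 7.18 ± 0.149. *Cdc20* stood at 1.58 ± 0.0479, and *Ttk* closed the list at 0.191 ± 0.0297 CPM per kb. On the principal transcript length *Bub3* stood at 32.2 and *Mad1l1* at 12.8 CPM per kb in these libraries.

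**Figure D1:**
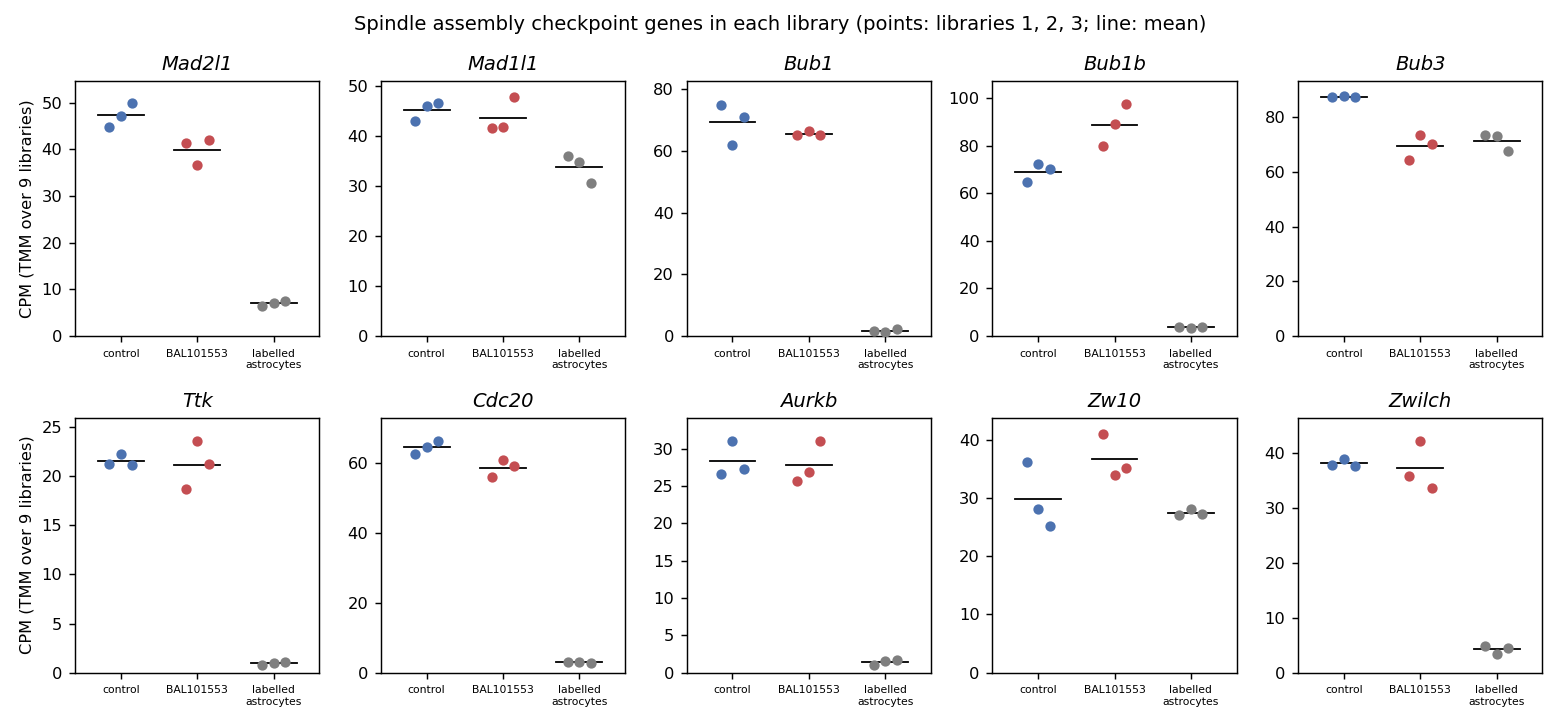
Level of each of the 10 checkpoint genes in each library, in CPM scaled by TMM over 9 libraries (vertical axes from 0, a separate scale per gene); points are libraries 1, 2 and 3 of each group from left to right and lines are group means. In the astrocyte-labelled libraries 7 genes lie near the bottom of their axis, *Ttk* lowest at a mean of 0.941 CPM, while the libraries of *Bub3*, *Mad1l1* and *Zw10* stay between 27.0 and 73.5 CPM.

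The question of the series design, whether checkpoint genes differed between BAL101553 and control tumors, was tested for every gene with edgeR's quasi-likelihood test and Benjamini-Hochberg adjustment over 12633 genes, a set that held all 10 members. *Bub1b* was higher and *Bub3* was lower after BAL101553, and the other 8 members did not pass an adjusted p of 0.05. With that threshold 14.7% of all genes tested passed, 8.64% higher and 6.09% lower, so that 2 of 10 members is a share near that of all genes. The median log2 fold change was -0.03 over the members and 0.02 over all genes. Summed over the 10 members, the level was 500 to 503 CPM in the control libraries and 469, 495 and 502 CPM in BAL101553 libraries 1, 2 and 3. An unadjusted p under 0.05 was found for 3 members, beside 34.1% of all genes tested. Markers of other cell types were read beside these values. Of 6 astrocyte markers tested 2 were lower in BAL101553 libraries (*Gja1*, 902 to 693 CPM, and *Sox9*, 158 to 100 CPM) and 1 was higher (*Slc1a3*, 0.628 to 1.87 CPM), while *Aqp4*, the astrocyte water channel, had 2 to 5 reads in each of the 6 libraries. The sum of all 8 markers, 1056 to 1136 CPM in control and 749 to 907 CPM in BAL101553 libraries, was mostly *Gja1* and *Sox9*. The 6 oligodendrocyte markers summed to 18.4 to 20.5 and 15.1 to 18.6 CPM. Of 4 microglial markers tested 1 was called, *P2ry12*, which was lower (1.73 to 0.457 CPM). The 4 endothelial markers summed to 33.1 to 42.5 CPM in control libraries and 25.8 to 72.8 CPM in BAL101553 libraries. Most of this sum was *Flt1*, at 37.3, 29.2 and 34.3 CPM in control and 69.7, 23.8 and 30.0 CPM in BAL101553 libraries. None of the oligodendrocyte, neuronal and endothelial markers tested was called. The part of these markers in the differences of the checkpoint genes was not tested.

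Upstream kinases gave values that overlapped between groups. *Ttk* encodes MPS1, the kinase that starts checkpoint signaling at kinetochores. Its level was 21.3, 22.3 and 21.2 CPM in control libraries 1, 2 and 3 and 18.7, 23.6 and 21.3 CPM in BAL101553 libraries 1, 2 and 3. The BAL101553 libraries spread to both sides of the controls, and the log2 fold change of -0.02 ± 0.12 (SE) had a 95% interval from -0.31 to 0.26 (adjusted p = 0.920). *Aurkb*, the Aurora kinase that releases faulty attachments, measured 26.6, 31.0 and 27.2 CPM against 25.6, 26.8 and 31.0 CPM. Its groups covered nearly the same range, with a log2 fold change of -0.02 ± 0.12 and an interval from -0.30 to 0.26 (adjusted p = 0.921). *Bub1*, the kinase that recruits other checkpoint proteins and marks the centromere, measured 75.1, 61.9 and 71.2 CPM in control and 65.2, 66.4 and 65.1 CPM in BAL101553 libraries. All 3 BAL101553 values lay inside the control range (log2 fold change -0.07 ± 0.096, interval -0.30 to 0.15, adjusted p = 0.616). A log2 fold change of 0.37, the value of *Bub1b*, lies outside the interval of each of these 3 genes. The interval of *Bub1b* itself, 0.14 to 0.60, overlaps all 3, and a difference between genes was not tested.

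The genes for the scaffold at unattached kinetochores were likewise not called. *Zw10* and *Zwilch* encode subunits of the RZZ complex, which brings dynein and the MAD1-MAD2 pair to the kinetochore. *Zw10* measured 36.2, 28.1 and 25.1 CPM in control libraries and 40.9, 33.9 and 35.1 CPM in BAL101553 libraries. Only control 1 reached into the BAL101553 range, and the log2 fold change of 0.31 ± 0.16 did not pass (interval -0.05 to 0.67, adjusted p = 0.205), nor did it with any library left out (0.19 to 0.46, adjusted p 0.0946 to 0.492). *Zwilch* measured 37.8, 38.9 and 37.5 CPM in control and 35.8, 42.2 and 33.5 CPM in BAL101553 libraries, with the controls inside the BAL101553 range (log2 fold change -0.03 ± 0.11, interval -0.29 to 0.24, adjusted p = 0.892). *Mad1l1* encodes MAD1, the kinetochore platform on which MAD2 is converted to its active form. It measured 43.1, 46.1 and 46.7 CPM against 41.6, 41.9 and 47.8 CPM, which overlapped (log2 fold change -0.04 ± 0.097, interval -0.27 to 0.18, adjusted p = 0.789). In the GENCODE annotation 5.93% of the *Zwilch* exon bases are shared with *Lctl* on the other strand, and 1.01% of those of *Mad1l1* with an antisense gene. The strand setting used for counting is not given in the sources used here.

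Of the 4 genes of the mitotic checkpoint complex, 1 rose, 1 fell and 2 were not called. *Bub1b*, at chr2:118598211-118641591 on the + strand of GRCm38, encodes BUBR1, the subunit that blocks substrate binding to the APC/C. It measured 64.9, 72.2 and 70.3 CPM in control libraries and 79.8, 89.2 and 97.4 CPM in BAL101553 libraries, so that every BAL101553 library stood above every control. The group means were 69.1 ± 3.79 and 88.8 ± 8.80 CPM (SD, n = 3), a ratio of 1.28 (log2 fold change 0.37 ± 0.10, adjusted p = 0.0465). *Bub3*, at chr7:131560222-131571895 on the + strand, encodes the adaptor that docks BUB1 and BUBR1 on phosphorylated KNL1. It measured 87.6, 87.7 and 87.3 CPM in control libraries and 64.4, 73.7 and 70.1 CPM in BAL101553 libraries. The controls were nearly identical and all BAL101553 libraries lay below them, with means of 87.5 ± 0.252 and 69.4 ± 4.67 CPM, a ratio of 0.793 (log2 fold change -0.33 ± 0.085, adjusted p = 0.0408).

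*Mad2l1*, which encodes the MAD2 protein that binds CDC20 directly, measured 44.9, 47.2 and 49.9 CPM in control and 41.3, 36.6 and 42.0 CPM in BAL101553 libraries. Its groups did not overlap, with means of 47.4 ± 2.52 and 40.0 ± 2.95 CPM. The log2 fold change of -0.24 ± 0.098 had an interval from -0.46 to -0.01 and did not pass after adjustment (edgeR's quasi-likelihood test, adjusted p = 0.132). *Cdc20* itself measured 62.7, 64.5 and 66.3 CPM against 56.1, 60.9 and 59.0 CPM. These groups did not overlap either, and the log2 fold change of -0.13 ± 0.083 was not called (interval -0.32 to 0.06, adjusted p = 0.306). Non-overlapping groups were found for 1 member in the higher direction and 3 in the lower, while 20.0% of all genes tested were higher and 19.7% lower without overlap. In the annotation, *Cdc20* shares 2.84% of its exon bases with *Elovl1* on the other strand.

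Both called members stood close to the threshold. With library totals in place of TMM only *Bub1b* passed (*Bub3* -0.24, adjusted p = 0.0934), and with every gene kept that had at least 1 count neither did (adjusted p = 0.0547 for *Bub1b* and 0.0520 for *Bub3*). *Bub1b* passed without BAL101553 1 (adjusted p = 0.0468), and lost its call without control 1 (0.141), control 2 (0.0795), control 3 (0.137), BAL101553 2 (0.0745) or BAL101553 3 (0.122). *Bub3* passed without BAL101553 2 (adjusted p = 0.0381), and lost its call without control 1 (0.103), control 2 (0.0812), control 3 (0.126), BAL101553 1 (0.104) or BAL101553 3 (0.0932). The direction of both genes was kept in all 24 alternatives run. Log2 fold changes ranged from 0.25 to 0.47 for *Bub1b* and from -0.38 to -0.24 for *Bub3*. Since the groups of both genes did not overlap, leaving libraries out could hardly turn their direction. Values above 0 were found for 2 of 10 members, beside 51.5% of all genes tested. The other 8 were negative, but 5 of the 8 (*Mad1l1*, *Bub1*, *Ttk*, *Aurkb* and *Zwilch*) turned positive, at 0.01 to 0.07, with library totals. BAL101553 1 was the lowest of the 6 tumor libraries for 5 of 10 members.

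**Figure D2:**
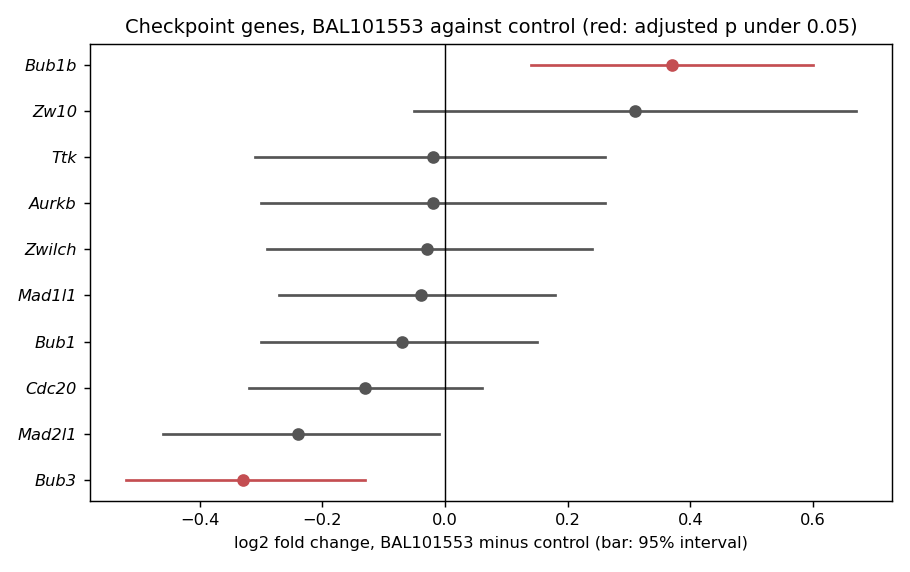
Log2 fold change of each checkpoint gene, BAL101553 minus control (points), with its 95% interval (bars), from edgeR's quasi-likelihood test on 3 against 3 libraries; red marks an adjusted p under 0.05. *Bub1b* at 0.37 and *Bub3* at -0.33 are the red points on either side of 0, and the intervals of the 3 kinases *Ttk*, *Aurkb* and *Bub1* span 0.

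**Figure D3:**
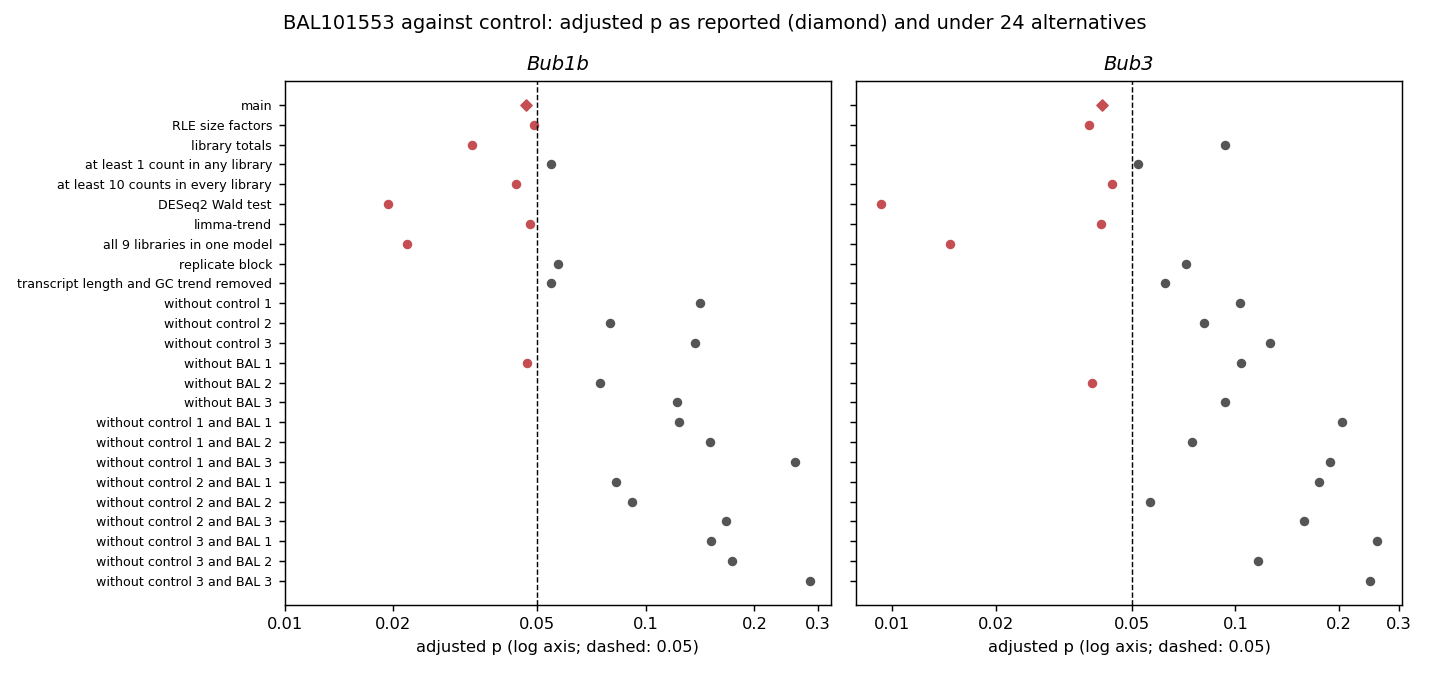
Adjusted p (log axis) of *Bub1b* and *Bub3* in BAL101553 against control as reported (diamond) and under 24 alternative settings (points); the dashed line is at 0.05 and red marks values below it. *Bub1b* passed in 7 and *Bub3* in 6 of the 24 settings, and neither passed in any of the 9 settings that left out 1 library of each group.

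Transcript length moved with the direction of change across all genes. The median principal transcript was 4100 bases long among genes called higher, 2201.5 among genes called lower and 3052 among all genes tested. When the trend of counts on length and GC content in each library was taken out, *Bub1b* stood at 0.36 (adjusted p = 0.0548) and *Bub3* at -0.28 (adjusted p = 0.0622), while *Mad2l1* passed at -0.44 (adjusted p = 0.0478). Beyond these values the part of length in the 3 differences was not tested.

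The balance of inhibitors to their target was read within each library, as the log2 ratio of the level per kb to that of *Cdc20*, which does not depend on scaling between libraries. *Bub1b* to *Cdc20* was -1.15, -1.03 and -1.11 in control and -0.69, -0.65 and -0.47 in BAL101553 libraries, a difference of means of 0.50 without overlap. *Bub3* to *Cdc20* was -1.43, -1.46 and -1.51 in control and -1.71, -1.63 and -1.66 in BAL101553 libraries, a difference of -0.20, also without overlap. *Mad2l1* to *Cdc20* overlapped, at -2.65, -2.62 and -2.58 against -2.61, -2.90 and -2.66, a difference of -0.11. A two-sided exact permutation test over 3 against 3 libraries gave p = 0.10 for *Bub1b*, 0.10 for *Bub3* and 0.400 for *Mad2l1* (0.150, 0.150 and 0.400 after adjustment over the 3 ratios). The smallest p this design allows is 0.10, so none could pass 0.05. With any 1 library left out, the difference was 0.43 to 0.54 for *Bub1b*, -0.22 to -0.18 for *Bub3* and -0.17 to -0.02 for *Mad2l1*.

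Promoter windows were looked up for members that passed the test, since cell cycle genes of G2 and mitosis often carry a cell cycle homology region (CHR, TTTGAA or TTCGAA) near a CCAAT box. The windows are from RefSeq on GRCm38.p6, with 250 bases before and 50 after an annotated RefSeq start, 5′ to 3′ on the + strand, and the motif letters found on either strand are in capitals. The window of *Bub1b* lies at chr2:118597961-118598260 and the first of the windows of *Bub3* at chr7:131560120-131560419.
Bub1b: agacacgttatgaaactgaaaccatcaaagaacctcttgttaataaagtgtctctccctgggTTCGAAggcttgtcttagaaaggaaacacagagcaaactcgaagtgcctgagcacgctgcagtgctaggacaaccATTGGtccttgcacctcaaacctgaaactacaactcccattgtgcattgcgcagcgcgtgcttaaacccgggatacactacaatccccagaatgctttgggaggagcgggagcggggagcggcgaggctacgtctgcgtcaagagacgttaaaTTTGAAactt
Bub3: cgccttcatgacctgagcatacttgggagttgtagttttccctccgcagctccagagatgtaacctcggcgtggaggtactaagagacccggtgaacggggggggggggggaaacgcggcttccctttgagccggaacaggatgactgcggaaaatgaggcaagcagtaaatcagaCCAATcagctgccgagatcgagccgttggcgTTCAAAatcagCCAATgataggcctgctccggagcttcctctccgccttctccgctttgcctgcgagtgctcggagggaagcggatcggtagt
In the *Bub1b* window TTCGAA began at -188 from the start, CCAAT on the reverse strand at -113 and TTTGAA at 41 bases after the start. In the *Bub3* window CCAAT was found at -74 and -32, with TTTGAA on the reverse strand at -43 between them. The table held windows for 8 of the 10 members, all but *Aurkb* and *Zwilch*. Both motif types were present in 5 of these 8, namely *Bub1*, *Bub1b*, *Bub3*, *Ttk* and *Cdc20*, whereas *Zw10* had TTTGAA alone and *Mad2l1* and *Mad1l1* had neither CHR form. Of all 32817 RefSeq windows, 19.2% held a CHR form, 37.4% held CCAAT and 7.51% held both, with TTTGAA in 17.9% and TTCGAA in 1.56%. The genes with both motifs included 1 that was higher, 1 that was lower and 3 that were not called in BAL101553 libraries.

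Other genes of the pathway, and markers of dividing cells, were read from lists. In BAL101553 against control 5 of these 64 genes passed the test, none of them a marker of dividing cells, against 14.7% of all genes tested. Of 20 checkpoint partners 19 were tested and 1 was called. *Cenpf*, a kinetochore protein of G2 and mitosis, rose from 41.1, 44.5 and 38.5 CPM to 49.2, 57.0 and 67.6 CPM (log2 fold change 0.49 ± 0.13, adjusted p = 0.0441). Of the 19 partners 11 had positive and 8 negative values, with a median of 0.10. Among 10 genes of the KMN network, the microtubule-binding core of the kinetochore and its associates, 1 was called. *Zwint*, which links KNL1 to the RZZ complex, fell from 205, 172 and 210 CPM to 144, 134 and 123 CPM (log2 fold change -0.54 ± 0.11, adjusted p = 0.0197). All BAL101553 libraries lay below all controls for *Zwint*, whose partner complex includes *Zw10* and *Zwilch*, which were not called.

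Among 18 genes for APC/C subunits, coactivators, ubiquitin-conjugating enzymes and the inhibitor *Fbxo5*, 2 were called, both lower. *Anapc15*, the subunit known for helping the APC/C to release the checkpoint complex, fell from 16.2, 16.0 and 14.8 CPM to 9.86, 11.2 and 11.8 CPM (log2 fold change -0.51 ± 0.13, adjusted p = 0.0393). *Ube2s*, the enzyme that extends ubiquitin chains on APC/C substrates, fell from 202, 184 and 215 CPM to 126, 161 and 151 CPM (log2 fold change -0.45 ± 0.12, adjusted p = 0.0398). Values were negative for 15 of the 18, beside 6128 of 12633 genes tested. The median was -0.19, beside 0.02 over all genes tested. Library totals moved the median of all genes to 0.10, and the signs of this list were not counted under that scaling. The summed level of this list was 1563 to 1659 CPM in control and 1398 to 1458 CPM in BAL101553 libraries. Of 10 APC/C substrates 1 was called, *Cdc25a*, a phosphatase that activates cyclin-dependent kinases. It fell from 46.7, 53.9 and 52.6 CPM to 40.0, 40.3 and 35.2 CPM (log2 fold change -0.40 ± 0.10, adjusted p = 0.0412). In these 10 substrates the median was -0.07.

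Of 9 genes that mark dividing cells 0 were called with the reported settings. An unadjusted p under 0.05 was found for 4 of them, beside 34.1% of all genes tested. DESeq2 called 2, 1 higher and 1 lower, beside 1495 higher and 1337 lower of 12633 genes. With edgeR 1 was called with library totals, with all 9 libraries in one model and with the length and GC trend removed. The same number was called without BAL101553 1 and without BAL101553 2. Their median was -0.08, with summed levels of 1302 to 1432 CPM in control and 1179 to 1395 CPM in BAL101553 libraries, which overlapped. The extremes were *Mki67*, the gene for the Ki-67 antigen, at 0.51 ± 0.17 (adjusted p = 0.0813) and *Cdk1*, the mitotic cyclin-dependent kinase, at -0.35 ± 0.11 (adjusted p = 0.0650). *Zwint* kept its call in 14 of 24 alternatives, against 8 for *Cenpf*, *Ube2s* and *Cdc25a* each and 5 for *Anapc15*. No direction of these 5 genes turned in any alternative, but their groups did not overlap, so leaving libraries out could hardly turn it. With library totals or with the length and GC trend removed, 0 genes of the APC/C list were called. The number of calls in the lists also depended on single libraries. Of the 64 genes, 0 were called without control 1, 1 without control 2, 0 without control 3, 3 without BAL101553 1, 4 without BAL101553 2 and 0 without BAL101553 3.

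The astrocyte-labelled libraries were then compared with the BAL101553 libraries, with which they share the treatment label. Of the 10 members 9 were lower in the astrocyte-labelled libraries and *Bub3* was not called. Across all 15314 genes tested 85.1% passed, 46.3% higher and 38.9% lower, while 85.8% had an unadjusted p under 0.05. Without overlap 39.2% of all genes were lower and 48.7% higher, beside 9 and 0 members. Values above 0 were found for 1 member, *Bub3*, and for 53.7% of all genes. The median log2 fold change was -3.73 over the members and 0.18 over all genes. Summed over the members, the level was 149 to 158 CPM against 469 to 502 CPM. Markers of dividing cells moved with this difference: all 9 were lower, with summed levels of 147 to 148 CPM against 1179 to 1395 CPM. Their part in the difference of the checkpoint genes was not tested.

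In the astrocyte-labelled libraries 7 members had 2.57% to 17.6% of their BAL101553 level. *Bub1* had the largest difference among the members, with 1.58, 1.24 and 2.24 CPM, or 50, 35 and 58 reads, and a log2 fold change of -5.32 ± 0.19 (adjusted p = 1.02e-07). *Bub1b* had 3.75, 3.50 and 3.74 CPM (-4.63 ± 0.12, adjusted p = 2.25e-08). *Ttk*, with 25, 27 and 28 reads, had 0.789, 0.955 and 1.08 CPM (-4.53 ± 0.19, adjusted p = 1.94e-07). All 3 are genes of kinases or, for BUBR1, of a protein with a kinase-like domain. *Cdc20* had 3.03, 2.97 and 2.85 CPM (-4.35 ± 0.10, adjusted p = 1.72e-08), and *Aurkb* had 1.04, 1.59 and 1.73 CPM (-4.30 ± 0.21, adjusted p = 5.04e-07). *Zwilch* kept 11.4% of its BAL101553 level, at 4.76, 3.46 and 4.51 CPM (-3.16 ± 0.16, adjusted p = 5.56e-07). *Mad2l1* kept the most of the 7, with 6.50, 7.04 and 7.59 CPM (-2.54 ± 0.12, adjusted p = 4.42e-07). None of these 7 was absent from the astrocyte-labelled libraries, in which each had at least 25 reads.

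The remaining 3 members differed little. *Mad1l1* had 36.1, 34.9 and 30.6 CPM, 77.4% of its BAL101553 level (log2 fold change -0.41 ± 0.11, adjusted p = 0.00724), and *Zw10* had 27.0, 28.1 and 27.3 CPM, or 75.0% (-0.45 ± 0.11, adjusted p = 0.00409). *Bub3* had 73.5, 73.1 and 67.8 CPM, inside the range of the BAL101553 libraries, with a log2 fold change of 0.01 ± 0.080 and a 95% interval from -0.18 to 0.19 (adjusted p = 0.928). These 3 values depended on the settings. Library totals moved the median of all genes from 0.18 to 0.39, and a filter of at least 10 counts in every library, which left 11873 genes, gave a median of 0.01. With library totals *Mad1l1* stood at -0.20 (adjusted p = 0.112) and *Zw10* at -0.24 (adjusted p = 0.0585), no longer called, and *Bub3* at 0.21 was called higher (adjusted p = 0.0357). With the filter they stood at -0.18 (adjusted p = 0.130), -0.23 (adjusted p = 0.0648) and 0.23 (adjusted p = 0.0259), with the same change of calls. With control libraries in place of BAL101553 libraries *Bub3* was lower in the astrocyte-labelled libraries (-0.34, adjusted p = 0.00133) and *Zw10* was not called (-0.16, adjusted p = 0.294). The other 7 differences stayed called in all 15 alternatives, the smallest of them that of *Mad2l1* at -2.79 to -2.32.

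Within the checkpoint complex, ratios to *Cdc20* in the astrocyte-labelled libraries are given as a description, without a test. *Bub1b* to *Cdc20* was -0.88, -0.96 and -0.80, between the control and BAL101553 means of -1.10 and -0.60. *Mad2l1* to *Cdc20* was -1.07, -0.92 and -0.75, above the means of -2.61 and -2.72. *Bub3* to *Cdc20* was 2.69, 2.71 and 2.66, above the means of -1.47 and -1.67, so that *Bub3* mRNA outnumbered *Cdc20* mRNA per kb only in the astrocyte-labelled libraries on the exon union length.

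**Figure D4:**
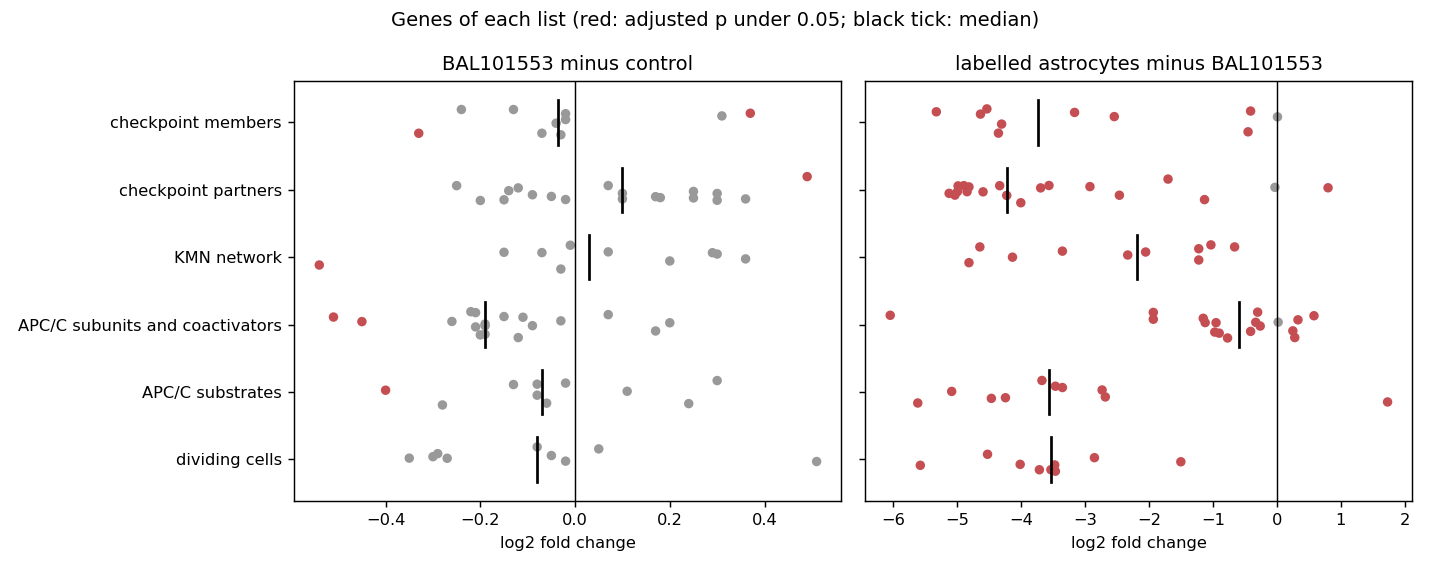
Log2 fold change of each gene (points) of the checkpoint members and 5 further lists, BAL101553 minus control on the left and astrocyte-labelled minus BAL101553 on the right; red marks an adjusted p under 0.05 and black ticks the list medians. On the left the members' median is -0.03 and that of the APC/C list -0.19, and on the right the members' median is -3.73 and that of the APC/C list -0.59.

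In the other lists, markers of dividing cells included, 62 of 64 genes were called between astrocyte-labelled and BAL101553 libraries. Of all genes tested 85.1% were called, 46.3% higher and 38.9% lower, so a high number of calls is not particular to these lists. Checkpoint partners had 17 lower, 1 higher and 1 not called, with a median of -4.22, from *Trip13*, the ATPase that dismantles the checkpoint complex, at -5.12 ± 0.34 to *Ppp2r5a*, a regulatory subunit of protein phosphatase 2A, at 0.80 ± 0.077. All 10 genes of the KMN network were lower, with a median of -2.19, from *Knl1* (listed as *Casc5*) at -4.81 ± 0.17 to *Nuf2* at -0.66 ± 0.16. The APC/C list had 13 lower, 4 higher and 1 not called, and a median of only -0.59. Its extremes were *Ube2c*, the enzyme that starts ubiquitin chains, at -6.04 ± 0.14 and *Anapc13*, a small core subunit, at 0.58 ± 0.12. Of the 10 substrates 9 were lower, with *Ccnb2*, a B-type cyclin, at -5.61 ± 0.22, while *Pttg1*, the gene for securin, was higher in the astrocyte-labelled libraries at 1.73 ± 0.11.

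The genes whose pattern over the 9 libraries was most like the median pattern of the members were *Uhrf1*, *Mcm3*, *3110039M20Rik*, *Ccne2* and *Kifc1*. Their root-mean-square distance from the members' median, on centered log2 CPM, was 0.074, 0.088, 0.092, 0.092 and 0.093. Among the members themselves *Zwilch* lay nearest to that median, at 0.20, and *Bub3* and *Zw10* lay far from it, at 1.5 each, with *Mad1l1* at 1.4. On this scale the members' median was 1.03 to 1.20 in the 6 tumor libraries and -2.37 to -2.15 in the others.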

How the data were processed

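The authors deposited 1 table of whole-number read counts per gene, not normalized, for 9 libraries. Per the study's methods, stranded libraries with 50 bp reads were mapped and counted, and the submitters' processing notes name TopHat, HTSeq 0.6.1 and mm10. Samples were grouped by their labels. Tests were run with edgeR 4.0.16 under R 4.3.3 (filterByExpr, TMM, glmQLFit and glmQLFTest on the groups compared, two-sided, Benjamini-Hochberg adjustment over all genes tested, threshold 0.05). Standard errors came from the F statistic. DESeq2 1.42.0 and limma 3.58.1 (limma-trend, prior count 2) served as alternatives, beside other scalings and filters, all 9 libraries in one model, left-out libraries and the replicate number as a block. The length and GC trend and the principal transcript length were chosen after seeing the data. Levels are CPM scaled over 9 libraries, where 15408 genes were kept, with an offset of 0.5 CPM for patterns over libraries on the log2 scale and none for ratios. GENCODE vM21 (GRCm38) gave exon lengths and coordinates. The members and the lists were chosen with earlier results of these data known. All members were named, with the called genes of each other list (where none was called, the highest and lowest), the highest and lowest in the astrocyte-labelled comparison, and the 5 genes most like the members. Names of 27 rows had turned into dates (at most 0.440% of counts) and were kept unnamed. At these depths counting error of the members is small in the tumor libraries, and largest for *Ttk* in the astrocyte-labelled ones. Some other genes named had fewer reads. *Trip13* had 9, 26 and 20 in the astrocyte-labelled libraries. In the tumor libraries *Slc1a3* had 13 to 75 and *P2ry12* 9 to 60. The code was tested on simulated data.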

Additional observations from a re-analysis of the deposited data

How the results depend on the processing

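In BAL101553 against control 2 checkpoint genes were called with the reported settings, and also with RLE size factors, at least 10 counts in every library, DESeq2, limma-trend and all 9 libraries in one model. The count was 1 with library totals, 0 with at least 1 count in any library, 0 with the replicate block and 1 (*Mad2l1*) with the length and GC trend removed, and 0 to 1 with libraries left out. Of the 64 genes of the other lists, dividing-cell markers included, 5 were called as reported, 8 with DESeq2, 1 with the replicate block, 3 of 60 with the trend removed and 0 to 4 with libraries left out. Correlations of same-numbered deviations were 0.16, -0.01 and 0.15. The same-numbered BAL101553 library was the best match for controls 1 and 3, but not for control 2. Whether the replicate numbers pair the libraries was not tested. With library totals 77.4% of all calls were higher instead of 58.7%, and *Mad1l1* (0.05), *Bub1* (0.01), *Ttk* (0.06), *Aurkb* (0.07) and *Zwilch* (0.06) turned positive, as did *Aurkb* (0.06) with the trend removed. With libraries left out these 5 spanned -0.14 to 0.01, -0.17 to -0.02, -0.12 to 0.08, -0.14 to 0.11 and -0.14 to 0.06. None of them was called in any alternative. All genes called numbered 1860 as reported, 2832 with DESeq2, 3022 with 9 libraries in one model, 193 to 1712 with 1 library left out and 1 to 1757 with 1 left out of each group, so that the 14.7% of all genes called depended on the libraries used as well. The summed level of the members in control libraries was 501 CPM, 475 with TMM over 6 libraries and 461 with library totals. In BAL101553 libraries it was 489 CPM, and 466 with TMM over 6 libraries. With library totals the mean of the BAL101553 libraries lay above that of the controls, the reverse of the order with TMM. In astrocyte-labelled libraries the summed level was 155 CPM, and 171 with totals. In the astrocyte-labelled comparison *Bub3* turned to -0.02 with at least 1 count in any library and to -0.34 against control libraries, and spanned -0.06 to 0.06 with 1 library left out, while 8 to 9 members were called in every setting. The causes of these shifts were not tested. The differences in the ratios to *Cdc20* kept their sign with 1 library left out. For *Bub1b* and *Bub3* that sign could not turn, since their ratios did not overlap between groups. Gene length cancels from these differences, so the choice of length could not change them. It did change the ratios: the mean of *Bub3* to *Cdc20* in controls was -1.47 on the exon union and 0.13 on the principal transcript.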
